A study of Mus musculus with 6 samples.

Results

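Of the 1247 mouse miRNA names on the arrays of this series, 5 gave most of the light. The names mmu-miR-6366, mmu-miR-3963, mmu-miR-5100, mmu-miR-3968 and mmu-miR-5126 (written without the species prefix from here on) were chosen by the mean processed signal of their spots over the 6 arrays, the highest of all names. By that measure, over all spots, the means were 125145 intensity units for miR-6366, 87041 for miR-3963, 16034 for miR-5100, 13632 for miR-3968 and 11496 for miR-5126. The first name outside the choice was miR-21a-5p at 8162, followed by miR-5109 at 7636. These levels set the choice, so they are given here as a description and were not tested. What the choice did not use, and what is described here, is how the names differed between treated and untreated cells, how well their probes agreed, what sequences they carry and what they did to the scaling of all other names.

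The samples were 3T3-L1 cells, a mouse embryonic fibroblast line that differentiates into adipocytes, harvested on day 8 of differentiation. All cells were grown in DMEM with fetal bovine serum and received rosiglitazone and insulin (each at 2 µmol/l), dexamethasone (at 1 µmol/l) and isobutyl-methylxanthine (at 0.5 mmol/l) for 3 days, then medium with insulin for 3 days and plain medium for 2 days. The 4 control samples had no further agent, and the 2 IL-6 samples had recombinant interleukin-6 (IL-6), an inflammatory cytokine, at 1 ng/ml from induction on, with medium changed every 24 h. Whether the samples of a group were separate cultures is not in the labels, so every p-value reflects sample-to-sample spread that may be technical only. 3T3-L1 is a single line, and the cells of each dish were measured in bulk, so that fewer cells of a kind and less RNA per cell cannot be told apart.

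A miRNA is a short RNA cut from a hairpin precursor. It guides a silencing complex to messenger RNAs, and bases 2 to 8, the seed, do most of the target recognition. Names with high numbers entered the miRNA catalogue late, mostly from deep sequencing of small RNA, where fragments of other abundant RNAs such as tRNA and rRNA are also captured. On this type of array, a labelled RNA binds a short DNA probe that pairs with the 3′ end of the miRNA, so the probe reads the end opposite the seed.

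The mature sequences of all 5 names are shown because several share stretches, with the seed in capitals, 5′ to 3′. They come from RefSeq (mouse build GRCm38.p6), which held an entry for 1017 of the 1247 array names.
miR-6366: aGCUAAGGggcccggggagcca
miR-3963: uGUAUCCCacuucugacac
miR-5100: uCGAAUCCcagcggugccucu
miR-3968: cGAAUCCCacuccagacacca
miR-5126: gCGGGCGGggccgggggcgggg
No 2 of them had the same seed, and no other mature miRNA in the RefSeq table shared a seed with any of them.

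In RefSeq, miR-6366 lies on the minus strand at chr16:18165093-18165114 and miR-3963 on the minus strand at chr3:151023839-151023857, neither within the bounds of another listed gene. miR-5100 lies on the plus strand at chr11:60728698-60728718, within the bounds of Mief2, which encodes a mitochondrial fission factor. miR-3968 lies on the minus strand at chr11:115447969-115447989, within the bounds of Trim80. miR-5126 lies on the plus strand at chr1:84695890-84695911, within the bounds of Dner, a transmembrane Notch ligand of neurons. Exon and intron bounds of these genes were not used here.

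The sequences split by composition and by a shared stretch. miR-5126 consists of G and C alone (100%) and miR-6366 is 72.7% G and C, above 99.9% and 96.8% of mature miRNAs in the table, whose median is 52.2%. The other members had 61.9% (miR-5100), 57.1% (miR-3968) and 47.4% (miR-3963). miR-5100 and miR-3968 share the run cgaauccca, starting at base 2 of the first and base 1 of the second. A shared run of 9 bases occurs in 0.168% of all 1408681 pairs of mature sequences. miR-3963 and miR-3968 share the run aucccacu from base 4 of each, and a shared run of 8 bases occurs in 0.579% of pairs. The core AUCCCA, found in miR-3963, miR-5100 and miR-3968, is held by 7 of 1679 mature sequences (0.417%), the other 4 being miR-7656-3p, miR-191-5p, miR-7679-3p and miR-6963-3p. The longer CGAAUCCCA, which contains it, is held by miR-5100 and miR-3968 and by no other mature sequence or hairpin in the table. These motifs were chosen after the sequences had been seen.

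The same holds for a pair of features known from tRNA, whose T arm carries the bases UUCGANUC and whose mature 3′ end is CCA. UUCGANUC occurs in the hairpin of miR-5100 and in 3 of 1005 hairpins in all (0.299%), the others being Mir10b and Mir485. Where it occurs beside CGAAUCCCA it overlaps that motif. A 3′ end of CCA is found in miR-6366 and miR-3968 and in 23 of 1679 mature sequences (1.37%). On the reverse complement, UUCGANUC was in 1 hairpin and CGAAUCCCA in 0, and AUCCCA was in 9 mature sequences, none of them a member. A match in these letters is a description of the sequence and says nothing about which RNA bound the probe.

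All 5 hairpins have 1 mature product listed, as do 380 of the 1058 hairpins with products in the table (35.9%). Most miRNA hairpins pair a mature arm with the opposite arm along most of its length. In minimum free energy folds of the RefSeq hairpins, miR-3968 had 61.9% of its mature bases paired, a value above only 3.04% of the 1581 mature sequences folded. miR-6366 and miR-5126 each had 68.2% paired, at the 10.0 percentile. miR-3963 with 73.7% and miR-5100 with 76.2% were also below the median of 81.0%. Folding energy per base ranged from -0.289 kcal/mol for miR-3968 to -0.629 for miR-5126, on either side of the median of -0.414.

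In controls 1 to 4, in that order, the signal of miR-6366 was 128347, 138306, 98178 and 127759 intensity units. With IL-6 (arrays 1 and 2, in that order) it was 135955 and 125158. That of miR-3963 was 88955, 95832, 73658 and 82088 in controls and 99562 and 83822 with IL-6. In both, control 3 was the dimmest array. Before scaling, both IL-6 arrays lay within the range of the controls for miR-6366, while IL-6 1 was the brightest array for miR-3963. The signal of miR-5100 was 16492, 18172, 13009 and 16272 in controls and 18374 and 14761 with IL-6. That of miR-3968 was 14878, 16448, 9709 and 13571 in controls and 14448 and 13041 with IL-6. That of miR-5126 was 11587, 11976, 7568 and 12638 in controls and 12659 and 12502 with IL-6. Control 3 was again the dimmest array for each. The 5 names held ranks 1 to 5 in the same order on all 6 arrays, although the ranges over arrays of neighbours overlapped except between miR-3963 and miR-5100. These are array brightnesses, and signals of different probes do not give relative numbers of molecules.

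The scanner was not at its limit. The brightest mouse spot on each array belonged to miR-6366 and reached 136110 to 186081, or 17.5% to 23.9% of the saturation value of 779318. No mouse spot was marked saturated. All 200 spots of the 5 names on each array were well above background, and 5 to 11 of them were left out as uneven or outlying.

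**Figure D1:**
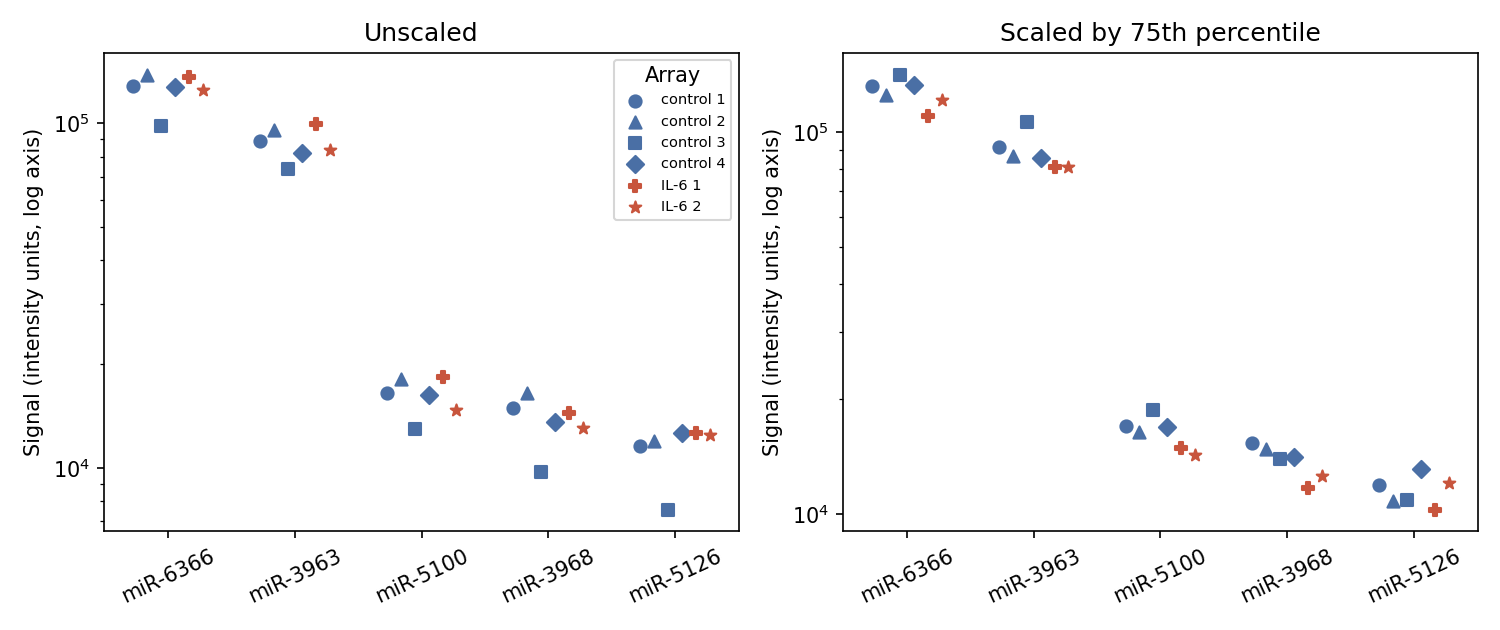
Signal of the 5 names on each array in intensity units on a log axis, before scaling (left) and after division by the array's 75th percentile (right); each point is 1 array, blue for control and red for IL-6. Control 3 is the dimmest array for every name before scaling, and after scaling both IL-6 arrays lie below all 4 controls for every name except miR-5126.

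Together the 5 names made up 71.8%, 71.1%, 72.9% and 70.4% of the summed mouse signal in controls 1 to 4, against 67.7% and 68.1% with IL-6. miR-6366 and miR-3963 alone held 56.8% to 62.0%, so that 2 names sufficed for 50% of this background-subtracted signal on every array. Once the 5 were set aside, 14 to 16 names were needed for 50% of the rest. The next 5 names (miR-21a-5p, miR-5109, miR-3960, miR-5097 and miR-6243) held 7.67% to 10.1%. The ratio of miR-6366 to miR-3963 varied from 1.33 to 1.56 over the arrays.

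The summed share of background-subtracted signal was lower on both IL-6 arrays than on any control. It was 71.6% ± 1.06 (SD, n = 4) in control and 67.9% ± 0.264 (SD, n = 2) with IL-6, a difference of -3.66 percentage points. The exact two-sided permutation p was 0.0667, the smallest that the 15 splits of 6 arrays allow, and 0.133 after Benjamini-Hochberg adjustment over 6 shares. The design can therefore not reach 0.05 for a single share. The size depended on the background correction: the difference was -2.41 points on raw mean signal (exact permutation p = 0.0667) and -1.72 points with normexp background (exact permutation p = 0.2). So did the level of the share. Its means in control and with IL-6 were 64.0% and 61.6% on raw mean signal, and 58.5% and 56.7% with normexp background. miR-6366 went from 35.4% to 33.5% (exact permutation p = 0.0667) and miR-5100 from 4.60% to 4.23% (exact permutation p = 0.0667). miR-3963 had 24.6% and 23.4% (exact permutation p = 0.333), miR-3968 3.89% and 3.52% (exact permutation p = 0.2), and miR-5126 3.12% and 3.23% (exact permutation p = 0.733).

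A share also depends on the rest of the array. Before scaling, the summed signal of the 5 names was 248860 ± 33379 (SD, n = 4) in control and 265140 ± 22425 (SD, n = 2) with IL-6, a log2 difference of 0.10 with an exact permutation p of 0.733. The summed signal of all other names was 99361 ± 16918 (SD, n = 4) and 125422 ± 12121 (SD, n = 2), a log2 difference of 0.35 with an exact permutation p of 0.2. So the share was lower although the unscaled signal of the 5 names was not. All 6 arrays were on 1 slide, and the 4 controls sat in its first row and both IL-6 arrays in its second, so row and treatment cannot be told apart. Slide columns 3 and 4 each held 1 array of both groups, and the share differed by -5.18 points within column 3 and by -2.35 points within column 4.

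**Figure D2:**
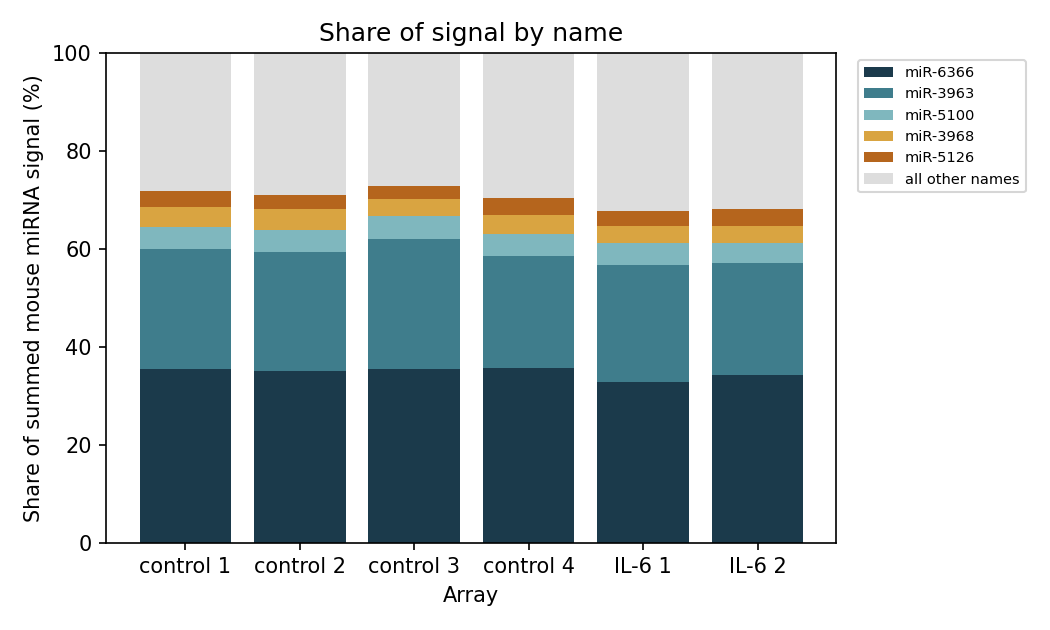
Share of the summed background-subtracted mouse miRNA signal (%) held by each of the 5 names and by all other names on each of the 6 arrays, as stacked bars. The 5 names hold 70.4% to 72.9% on the control arrays and 67.7% and 68.1% on the IL-6 arrays.

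After scaling, none of the 5 names passed the test for a difference between IL-6 and control (0 of 5, limma with Benjamini-Hochberg adjustment over 299 names and a threshold of 0.05). Over all tested names 0.334% passed, which is 1 name, miR-5117-5p, a dim name near the floor of 6.25 units and higher with IL-6. Scaling divided each array by the 75th percentile of the 502 probes detected on all arrays. The scaled log2 signal of miR-3968 was 13.90, 13.86, 13.77 and 13.79 in controls and 13.52 and 13.62 with IL-6. The IL-6 values lay below all controls, with means of 13.83 ± 0.06 (SD, n = 4) and 13.57 ± 0.07 (SD, n = 2) and a log2 difference of -0.26 ± 0.07 (SE, limma adjusted p = 0.106). miR-5100 had 14.05, 14.00, 14.19 and 14.05 in controls and 13.86 and 13.80 with IL-6. Here too the groups did not overlap, with a log2 difference of -0.24 ± 0.08 (SE, limma adjusted p = 0.146).

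The values of the brightest pair were as follows. miR-6366 had 17.01, 16.93, 17.11 and 17.02 in controls and 16.75 and 16.89 with IL-6, a log2 difference of -0.20 ± 0.09 (SE, limma adjusted p = 0.242). Without IL-6 1 it was -0.13. miR-3963 had 16.48, 16.40, 16.69 and 16.38 in controls and 16.30 and 16.31 with IL-6, a log2 difference of -0.19 ± 0.11 (SE, limma adjusted p = 0.356). Both IL-6 values were below all controls in each, and control 3 was the highest array in each. miR-5126 was the exception: its values of 13.54, 13.40, 13.41 and 13.68 in controls overlapped 13.33 and 13.56 with IL-6, and its log2 difference was -0.06 ± 0.11 (SE, limma adjusted p = 0.781).

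As folds of control over IL-6, the differences ranged from 1.05 for miR-5126 to 1.20 for miR-3968. Both IL-6 arrays lay below all 4 controls for 4 of the 5 names, against 21.7% of all tested names. All 5 log2 differences were below 0, against 54.5% of tested names. The unadjusted limma p was under 0.05 for miR-5100 (0.0196) and miR-3968 (0.0108), against 12% of tested names that passed it in that direction. The median log2 difference was -0.20 over the 5 names and -0.02 over all 299. With the slide column as a block, log2 differences were -0.25 for miR-6366, -0.23 for miR-3963, -0.29 for miR-5100, -0.21 for miR-3968 and -0.10 for miR-5126, with limma adjusted p from 0.294 to 0.487. Within columns 3 and 4, the log2 differences were -0.36 and -0.13 for miR-6366, -0.39 and -0.07 for miR-3963, -0.33 and -0.25 for miR-5100, -0.25 and -0.16 for miR-3968 and -0.08 and -0.12 for miR-5126.

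Each name was read by 2 probes that differ by 1 base in length. They are shown because the added base, in capitals at the 3′ end of the longer probe, went with very different changes in brightness. The longer probes, as DNA 5′ to 3′ from the deposited array design columns, are as follows.
miR-6366: tggctccccggG
miR-3963: gtgtcagaagtgggaT
miR-5100: agaggcaccgctgG
miR-3968: tggtgtctggagtgG
miR-5126: ccccgcccccG
All 10 probes pair without a mismatch with the 3′ end of the mature sequence printed under the same name, and no other mature miRNA in the table holds a site for any of them. The 10-base probe of miR-5126 also has a site in 1 other hairpin, Mir6403. The probes of miR-5126 (10 and 11 bases) and miR-6366 (11 and 12 bases) are among the shortest on the array, where probes have 9 to 23 bases with a median of 16, and 3.70% have at most 11.

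For miR-3968 the 15-base probe had a mean signal of 26423 and the 14-base probe 942. The ratio was 28.2 over all arrays and 26.5 to 30.0 on single arrays, the highest of the 238 pairs of probes on the array that differ by 1 base and were detected on all arrays. For miR-5100 the 14-base probe had 28969 and the 13-base probe 3391, a ratio of 8.56 (8.36 to 8.73) and the third highest. For miR-3963 the ratio was 2.38 (2.26 to 2.49), with 122821 at 16 bases and 51818 at 15.

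The GC-rich names differed from these. For miR-5126 the probes were level, with 11551 at 11 bases and 11426 at 10 and a ratio of 1.01 (0.997 to 1.03). For miR-6366 the order was turned, with 90747 at 12 bases and 160487 at 11, a ratio of 0.563 (0.506 to 0.595) and the lowest of the 238. Over all pairs the median ratio was 1.39 with quartiles of 1.10 and 1.88, and the longer probe was the brighter in 211. Only 4 pairs reached a ratio of 8, the other 2 being miR-149-3p at 12.1 and miR-3473a at 8.11. The 5 names thus held both ends of the distribution, and why was not tested.

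In spite of these gaps in level, both probes of a name gave nearly the same difference between groups. Log2 differences of the shorter and the longer probe were -0.21 ± 0.10 and -0.19 ± 0.07 (SE) for miR-6366, and -0.17 ± 0.09 and -0.19 ± 0.12 for miR-3963. They were -0.22 ± 0.06 and -0.24 ± 0.07 for miR-5100, -0.25 ± 0.11 and -0.26 ± 0.06 for miR-3968, and -0.08 ± 0.12 and -0.05 ± 0.11 for miR-5126. None of the 10 probes passed the limma test over 571 probes (adjusted p from 0.105 to 0.860), against 1.05% of all probes tested. The 2 probes of a name differed from each other by 0.0063 to 0.031 on this log2 scale, around the median of 0.028 over the 238 pairs. Each probe was printed in 20 spots, of which 15 to 20 were used, with a coefficient of variation among spots of 1.13% to 4.53%. The spread among spots of a probe on 1 array was thus below the spread of a name over the 6 arrays, which was 10.9% to 17.1% before scaling and 8.49% to 10.6% after it. The 2 probes share all but 1 base, the same arrays and the same scaling factor, so their agreement repeats the reading only within an array. It does not show which RNA they bound, since both read the same 3′ end.

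**Figure D3:**
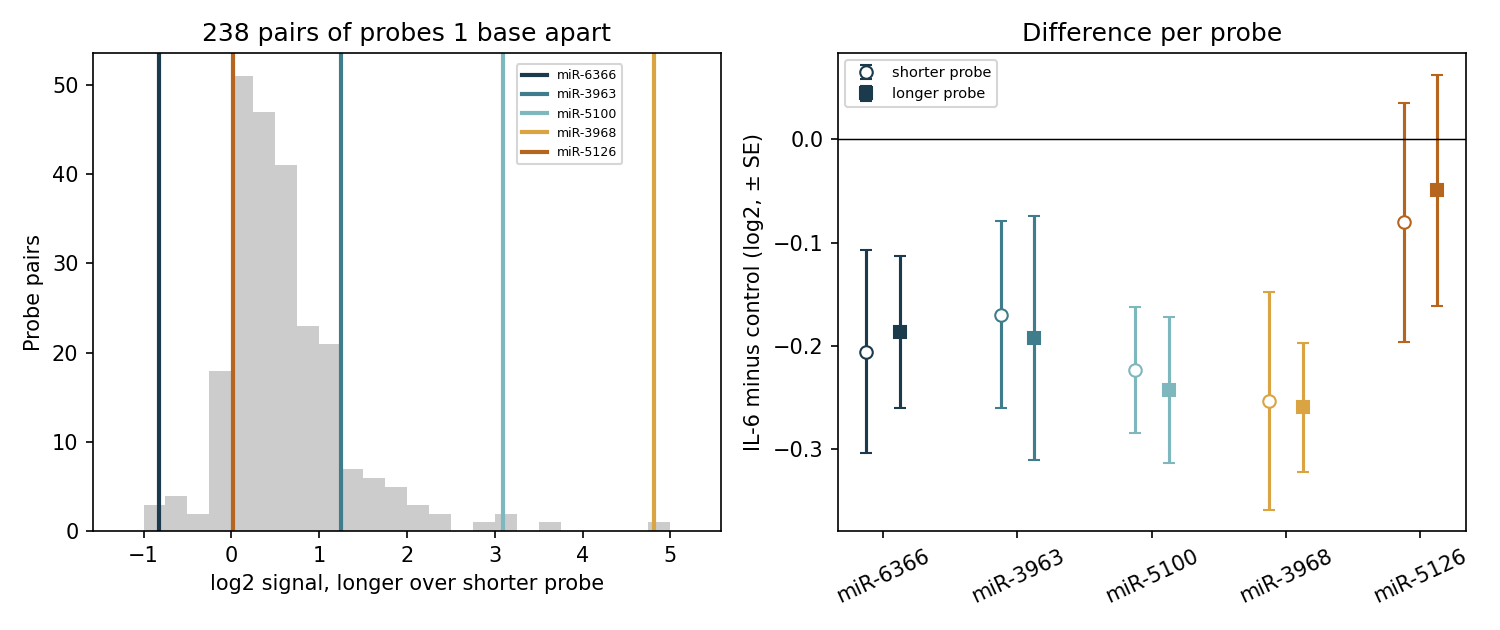
Left, the number of probe pairs by their log2 ratio of signal, longer over shorter probe, over 238 pairs that differ by 1 base (grey), with coloured lines at the 5 names; right, the log2 difference IL-6 minus control of each probe of the 5 names with its limma standard error. The ratios of the 5 names run from the lowest (miR-6366) to the highest (miR-3968) of all pairs, while the gap between both probes of a name is smaller than their standard errors.

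With so large a share, the 5 names bear on any scaling that uses total light. The 75th percentile of detected probes was 347, 396, 248 and 343 in controls 1 to 4, against 440 and 369 with IL-6. Of the 502 probes behind it 10 belong to the 5 names, and all 10 lie above the percentile on all arrays. Leaving these 10 out changed each array's relative factor by at most 3.90%. The mean log2 factor with IL-6 minus that in control went from 0.29 to 0.36. For the total signal it was 0.18 with the 5 names and 0.35 without them. Relative to the mean of the 6 arrays, the total-signal factor of control 3 was 0.765 with them and 0.695 without them.

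A shift of the factor moves all names clear of the floor by the same amount. With total-signal scaling, the median log2 difference of all names was 0.09. It was -0.07 once the 5 names were left out of the total, a shift of 0.17. At an unadjusted limma p under 0.05, total-signal scaling gave 54 names higher and 3 lower with IL-6, and without the 5 names 32 higher and 58 lower. The 75th percentile gave 32 higher and 36 lower, and without the 5 names' probes 27 higher and 70 lower. The balance of higher against lower names thus depended on whether these 5 were in the factor. For the percentile this is not particular to them. Leaving out any other 10 probes that lie above it on all arrays would give the same factor. Only the shift of the total rests on how bright the 5 names are. Over the 6 fits that each left out 1 array, the names lower at an unadjusted p under 0.05 numbered 3 to 10 with total-signal scaling and 24 to 82 without the 5 names in the total.

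After Benjamini-Hochberg adjustment, total-signal scaling called 20 names higher (6.69% of those tested), and the same scaling without the 5 names called 1 (0.334%). That 1 name, miR-5117-5p, was among the 20 and was also the name called with the 75th percentile. It was dim, with a mean log2 signal of 3.03 under total-signal scaling, where the floor was 5.68 intensity units. Its log2 difference went from 1.21 to 1.00 without the 5 names, more than the common shift of 0.17, so floored values enter it. Of the 20, miR-5118 (2.66), miR-6354 (2.66), miR-681 (2.84) and miR-6418-5p (3.00) were dimmer still, while the brightest, miR-709, had 9.44. The 20 included miR-574-5p, miR-709 and miR-466i-5p, named here after their values were seen, and none of the 5. With the 5 names in the total, the limma adjusted p of the 20 ran from 0.00675 to 0.0474. With them out, the names no longer called had a limma adjusted p from 0.0595 to 0.133. Many of these names thus lay near the threshold of 0.05 in both. The counts of names called rest on single arrays. With total-signal scaling they were 2, 3, 0 and 40 higher without controls 1 to 4 in turn, and 4 and 5 without IL-6 1 and IL-6 2. With the 5 names out of the total they were 1, 1, 0 and 26, and 5 and 4. Without control 4, 1 name was also called lower with the 5 names in the total, and 47 with them out. The count was thus not larger with the 5 names in the total in every fit. With the slide column as a block both scalings called 0 names (limma adjusted p under 0.05). At an unadjusted p under 0.05 that fit gave 59 higher and 4 lower with the total, and 30 higher and 25 lower with the total less the 5 names.

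The 5 names' own differences moved with the factor. With their probes out of the 75th percentile the log2 differences were -0.27 for miR-6366, -0.26 for miR-3963, -0.31 for miR-5100, -0.33 for miR-3968 and -0.14 for miR-5126. Then 4 of the 5 had an unadjusted limma p under 0.05, against 23.4% of tested names that passed it in the lower direction, and the lowest limma adjusted p was 0.0528, for miR-3968. With total-signal scaling they were -0.08, -0.07, -0.12, -0.14 and 0.054 in the same order, and with no scaling 0.095, 0.11, 0.053, 0.035 and 0.23. With the 5 names out of the total and control 4 left out, miR-3968 (-0.35, limma adjusted p = 0.0386) and miR-5100 (-0.32, limma adjusted p = 0.0392) passed the threshold, against 15.7% of 300 names that passed it in that direction. The direction given for these names therefore holds relative to the scaling factor used: with total-signal scaling it turned for miR-5126 only, and without scaling for all 5.

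**Figure D4:**
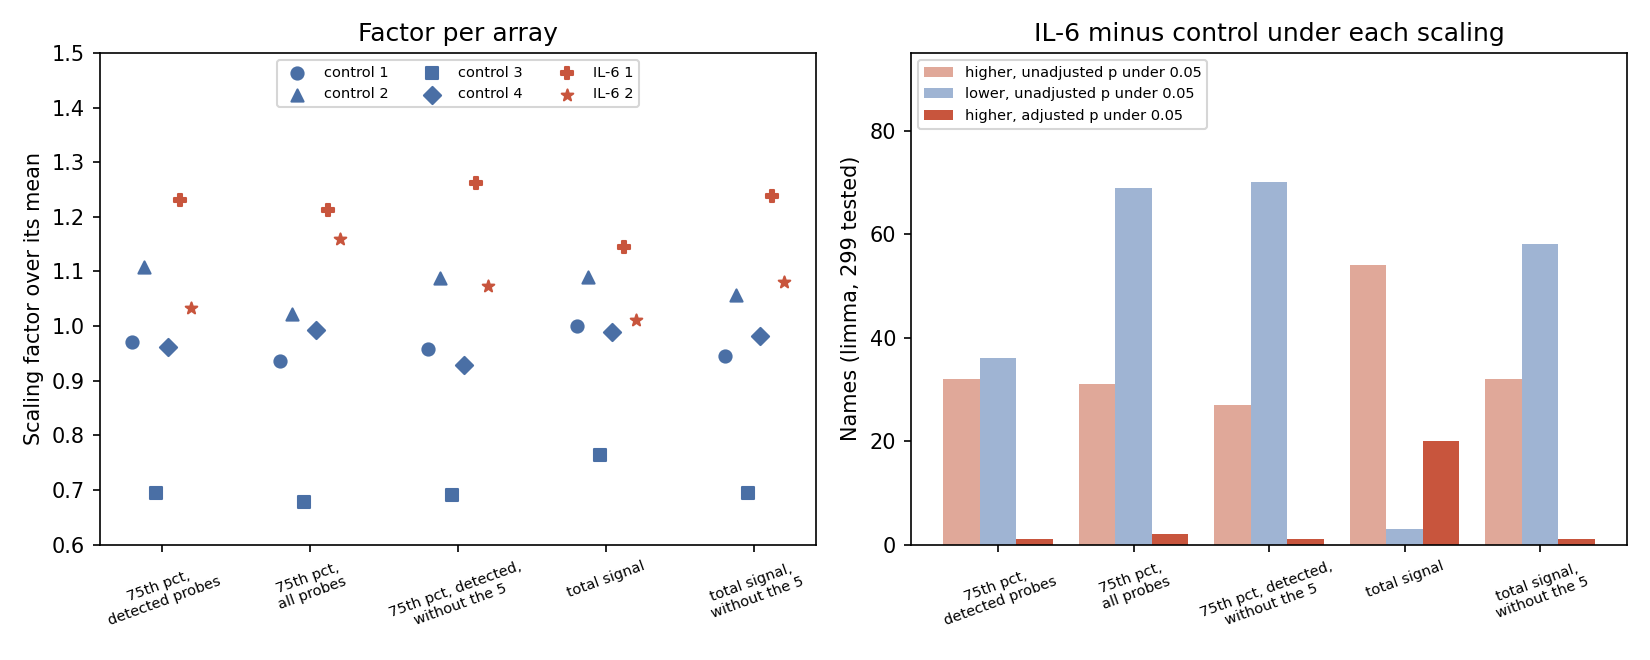
Left, the scaling factor of each array over its mean across the 6 arrays, for 5 ways of scaling (percentile factors in the left 3, totals in the right 2), with controls in blue and IL-6 in red; right, the number of the 299 tested names higher or lower with IL-6 under each. Names lower at an unadjusted p under 0.05 number 3 with total-signal scaling and 58 once the 5 names are left out of the total.

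Across the 6 arrays the 5 names did not follow 1 profile. As a description over 6 arrays that share their scaling factors, with no test, the scaled log2 signals of miR-3963 and miR-5100 correlated with Pearson's r of 0.900, those of miR-6366 and miR-5100 with 0.872, and those of miR-6366 and miR-3963 with 0.828. For miR-5126, r was 0.413 to miR-6366, 0.337 to miR-3968, 0.0450 to miR-5100 and -0.133 to miR-3963. miR-3963 and miR-3968, which share a run of 8 bases, had r of 0.504. miR-5100 and miR-3968, which share a run of 9, had 0.681.

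The names most like miR-5100 were miR-143-3p (r = 0.983), miR-296-5p (0.975) and miR-21a-5p (0.972), the first and last of them abundant in fibroblasts and fat cells. Those most like miR-3963 were miR-301a-3p (0.988), miR-298-5p (0.988) and miR-24-3p (0.983), and those most like miR-6366 were miR-193a-3p (0.985), miR-3091-5p (0.981) and miR-378b (0.962). Those most like miR-3968 were miR-3068-3p (0.964), miR-324-3p (0.957) and miR-378c (0.939). For miR-5126 they were miR-211-3p (0.984), miR-149-3p (0.984) and miR-222-3p (0.968). Each was picked as the closest among all other tested names, and so many names over 6 arrays always hold some with a high r.

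Established miRNAs of fat cells and fibroblasts were each dimmer in mean signal than the 5 names, which the choice by brightness had fixed in advance. A list of 20, all tested, held 8.81% to 10.2% of the signal, with 0 passing the limma test after adjustment, 18 log2 differences below 0 and a median of -0.12. Its brightest members were miR-21a-5p, an abundant miRNA of fibroblasts, with a log2 difference of -0.15 ± 0.07 (SE, limma adjusted p = 0.244), and miR-199a-3p, known from mesenchymal cells, with -0.05 ± 0.12 (SE, limma adjusted p = 0.871). A list of 28 other bright or high-numbered names, of which 23 were tested, held 7.29% to 10.8%. In it 1 was called higher and 0 lower, 8 differences were below 0, 15 were above 0 and the median was 0.16. Their brightest were miR-5109, with 0.40 ± 0.16 (SE, limma adjusted p = 0.212), and miR-3960, with -0.15 ± 0.10 (SE, limma adjusted p = 0.423).

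The label of the cells was checked against miRNAs typical of cell types. All 6 names shared by adipocytes and their fibroblast-like precursors were detected on all arrays, with a summed signal of 5288 to 8412. None of 4 muscle, 5 blood cell, 2 neural, 1 liver and 1 endothelial names was detected on any array, and none of these summed to more than 4.12. No miRNA on the array marks adipocytes alone, so these values do not show how far the cells had differentiated.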

How the data were processed

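Small RNA from 6 samples (4 control, 2 IL-6; groups and numbers from the titles) was read on 1-colour Agilent arrays from 100 ng of total RNA with an integrity number of 9.5 to 10.0, per the labels' protocols. Per the submitters' processing notes, the scanner software was Agilent Feature Extraction 10.10.1.1. The deposited intensity values are background-subtracted per spot and not scaled between arrays, per the file headers. The raw mean, local background and per-miRNA total intensity columns and the authors' series table, also intensity values, served alternatives only.

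Control spots (2164 per array) and spots flagged as uneven or outlying were left out, and the remaining spots of each of 3105 probes averaged. A probe was detected where at least 0.5 of its spots were well above background. As scaling factor, each array had the 75th percentile taken over the 502 probes that every array detected. Linear signals of a name's probes were averaged, those below 6.25 (16.2 per probe) were set to that floor, and log2 was taken. The 299 names detected on all arrays of a group were tested with limma 3.58.1 (R 4.3.3, lmFit and eBayes with a trend, two-sided, all 6 arrays, no covariate, Benjamini-Hochberg, threshold 0.05). The fit was tested on simulated data, drawn for each name independently with no error shared within an array. That test therefore does not cover shared array or scaling error. Single shares were compared with an exact permutation test over 15 splits. Shares use unscaled signal. The number of arrays limits the precision.

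Alternatives covered scaling, background (normexp with offset 50), the detection filter, flagged spots, probe summaries, the trend, slide column and replicate number as blocks, and each array left out. Replicate numbers 1 and 2 occur in both groups. Deviations of same-numbered arrays from their group means correlated with r of 0.0582 and -0.338 over 299 names, so the numbers were not taken to pair samples. The names given are the 5 members, for each the 3 names with the highest Pearson correlation, the 2 brightest of each list and the 5 names next in signal. The members, lists and tests were chosen with earlier results of these data known. Sequences and positions are RefSeq's, since the positions in the array design did not lie over the mature sequence for minus-strand names. Hairpins were folded with RNAfold 2.7.2.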

Additional observations from a re-analysis of the deposited data

How the results depend on the processing

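None of the 5 names passed the limma threshold under any of the 15 alternatives for the names or the 6 fits without 1 array. With no scaling, differences turned to 0.095 (miR-6366), 0.11 (miR-3963), 0.053 (miR-5100), 0.035 (miR-3968) and 0.23 (miR-5126). That of miR-5126 also turned with total signal (0.054), quantile scaling (0.022) and the scanner software's total per miRNA (0.032), and ran from -0.18 (without IL-6 2) to 0.053 (without IL-6 1) over fits without 1 array. Quantile scaling, done on probes, fixes miR-6366 and miR-3963 at 0 by construction, since each of their probes holds the same rank on every array. Over all names, 1 was called higher in the stated analysis. This count was 34 without scaling, 20 with total signal, 3 with the software's total, 2 with the percentile of all mouse probes, 2 without the detection filter and 2 with the brightest probe. It was 0 with normexp background, 0 with the series table and 0 with the slide column as a block, where 6, 29 and 34 names were higher at an unadjusted p under 0.05. Without 1 array it ran from 0 (without control 3) to 23 (without control 4, with 8 called lower, against 0 in the other fits), and was 5 without IL-6 1 and 4 without IL-6 2. With the replicate number as a block, 0 names were called higher, and with that block total-signal scaling called 33 higher, and 32 higher and 10 lower once the 5 names were out of the total, so that the contrast of 20 with 1 was not seen there. Those 10 included miR-6366, miR-3963 and miR-3968. The difference in summed share was -2.41 points on raw mean signal, -1.72 with normexp background (exact permutation p = 0.2), -5.18 within slide column 3 and -2.35 within slide column 4, and -4.03 to -3.21 without 1 array. The fits of total-signal scaling under left-out arrays and blocks were added after seeing the data: without 1 array, 0 to 40 names were higher with the 5 names in the total and 0 to 26 without them. The causes of these changes were not tested. All spots of the 5 names were well above background on every array, and slide row could not be told apart from treatment.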

Other observations

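Just below the 5 names, miR-6243 (rank 10 in mean signal) varied more than its neighbours. Its signal was 2351, 2738 and 1921 on controls 1 to 3, 5871 on control 4, and 5799 and 8058 on the IL-6 arrays. Control 4 thus lay with the IL-6 arrays, and the log2 difference of 0.93 ± 0.44 (SE) did not pass the limma test (adjusted p = 0.254). miR-5097 (rank 9) had a log2 difference of -0.33 ± 0.06 (SE, limma adjusted p = 0.0795), the nearest to the threshold among these neighbours.

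The array design lists a genome position for each probe. For names on the plus strand, 1334 of 2125 listed positions lay within the RefSeq mature sequence of the same name, and for names on the minus strand 1 of 1549 did. Within the bounds of the hairpin, the numbers were 1340 and 986. The listed positions of minus-strand names, miR-6366, miR-3963 and miR-3968 among them, therefore do not mark where the probe pairs.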
